A study of Mus musculus and Macaca mulatta with 39 samples.

Results

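In embryonic mouse cortex, 243 autosomal loci carried the histone mark H3K4me2 at every stage and in every replicate while no H3K27ac region was called on them in any sample. They were chosen by the region lists themselves. Regions of the 8 mouse H3K4me2 lists that overlapped or touched were merged into 91956 loci, of which 23139 were autosomal and called in all 8 lists, here termed constant loci. The 243 members are the constant loci that share no base with a region of any of the 8 mouse H3K27ac lists. They span 456.949 kb in all. A further 699 loci called in all 8 lists lay outside the autosomes, and 2 of those had no H3K27ac region.

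The lists come from chromatin immunoprecipitation and sequencing (ChIP-seq) on cortex of C57BL6J mice, an inbred laboratory strain with no genetic change or treatment given in the labels. Cortex was taken at embryonic day 11.5 (E11.5) and at E14.5. At E17.5 its frontal and occipital parts were taken separately. Each of these 4 tissues had 2 biological replicates, and each replicate gave both marks. Tissue was homogenized without a sort for cell type, so that a region can come from any cell type in it and a mark present in few cells cannot be told apart from a weak mark in many. The files give the position of each called region on the mouse build mm9 and no score or read count, and read depth is therefore unknown.

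H3K4me2 is a dimethylation of histone H3 that marks promoters and enhancers, including ones that are not in use in the cell studied. H3K27ac is an acetylation of the same histone tail that accompanies active promoters and enhancers. Sites with the first mark and without the second are commonly called primed or poised. Some of them are held silent by Polycomb proteins, which methylate the residue that would otherwise be acetylated. Such sites can gain acetylation when a cell differentiates, and others belong to genes of other lineages and remain inactive. Neither transcription nor Polycomb marks were analysed here.

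The lists differed in length. The H3K4me2 lists held 32366 regions in E14.5 replicate 1, 33865 in E11.5 replicate 1 and up to 76833 in E17.5 occipital replicate 2. The H3K27ac lists held 47631 regions in E11.5 replicate 2 and up to 87236 in E17.5 frontal replicate 1. Both marks bear on membership, since a locus missing from 1 H3K4me2 list or overlapped in 1 H3K27ac list is not a member. Without the H3K4me2 list of E11.5 replicate 1 or of E14.5 replicate 1 the number of members was 320 or 324, and without the H3K27ac list of E17.5 frontal replicate 1 or of E14.5 replicate 1 it was 309 or 301. Leaving out any other single list gave 244 to 274. For H3K27ac the number did not simply follow list length, as E14.5 replicate 1 held 65261 regions, fewer than any E17.5 list. The cause was not tested.

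With any shared base counted as acetylation, its lack was rare among loci where H3K4me2 was constant. The members made up 1.05% of the constant loci. Had H3K27ac been required to cover at least 50% of a locus, 3141 constant loci would have counted as never acetylated. By shared bases, 17767 of all constant loci (76.8%) were overlapped by H3K27ac in all 8 lists and 5129 in 1 to 7. Between these extremes the counts rose with the number of H3K27ac lists, from 230 loci overlapped in 1 list and 269 in 2 lists to 1107 in 6 and 2113 in 7. The share of never acetylated loci fell with H3K4me2 recurrence. It was 38.4% of the 27240 autosomal loci called in 1 H3K4me2 list, 13.1% of those in 3 lists and 4.46% of those in 7. These shares are given as a description and were not tested. Locus width also rose with recurrence, between loci called in 1 H3K4me2 list and those in all 8. Its median went from 700 to 1550 bp in never acetylated loci and from 775 to 3450 bp in the others.

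**Figure D1:**
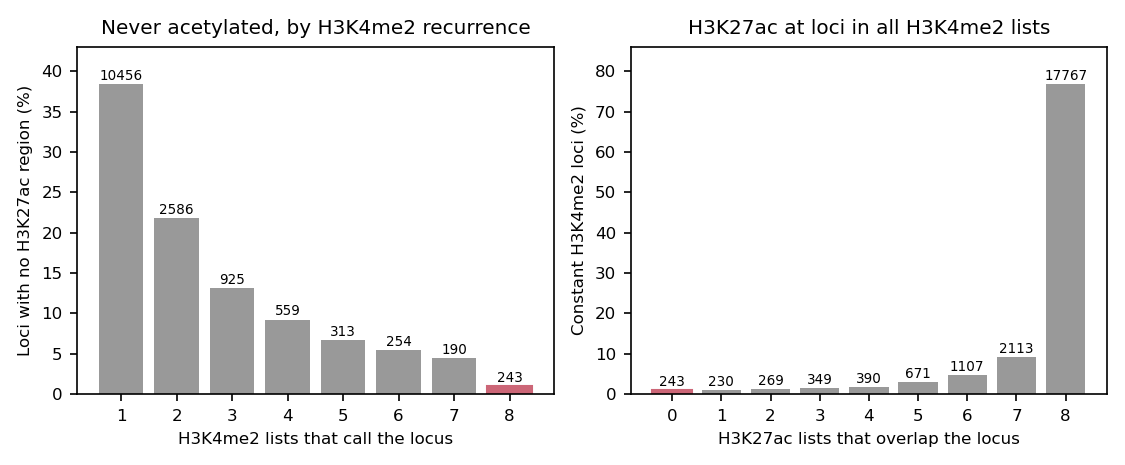
Left, share of autosomal H3K4me2 loci with no H3K27ac region (y axis, %) by the number of H3K4me2 lists that call them (x axis). Right, share of the 23139 constant loci (y axis, %) by the number of H3K27ac lists that overlap them (x axis). Numbers above bars count loci, and the red bar is the 243 members in both panels.

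Members were short stretches. The merged locus had a median width of 1550 bp (quartiles 1325 and 1987.5 bp, range 974 to 6400 bp), against 2125 bp for constant loci overlapped in 1 to 7 H3K27ac lists and 3875 bp for those overlapped in all 8. Of the 1003 constant loci narrower than 1500 bp, 10.5% were members, compared with 2.68% of those from 1500 to below 2000 bp, 0.651% from 2000 to below 3000 bp, 0.233% from 3000 to below 5000 bp and 0.116% of the 6010 loci of 5000 bp or more. A short locus offers fewer bases on which an H3K27ac region can fall, so width and membership are not independent. The part of the difference that comes from this was not tested.

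Members were mostly called as a single region, whose extent varied between lists. In 235 of the 243 members (96.7%) every list called exactly 1 region. This held for 91.4% of the constant loci overlapped in 1 to 7 H3K27ac lists and 84.9% of those overlapped in all 8. The bases covered in all 8 lists at once, the core of the locus, had a median length of 800 bp, or 50.1% of the merged width. The core share of the constant loci overlapped in 1 to 7 H3K27ac lists was close to that of members, at 1000 bp or 48.3%. For the constant loci with H3K27ac in all lists the core was 2200 bp, or 59.4% of the width. The median coefficient of variation of covered length over the 8 lists was 18.4% in members and 16.0% in those fully acetylated loci. In 7 members no base was shared by all lists.

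The length covered by H3K4me2 in a member, taken list by list in unscaled bp, did not follow the order of the stages. The median over members was 1075 bp in E11.5 replicate 1 and 1450 bp in replicate 2. It was 950 and 1225 bp in the E14.5 replicates, 1275 and 1150 bp in frontal cortex at E17.5, and 1200 and 1225 bp in occipital cortex. The lowest and the highest of these medians thus belonged to the 2 early stages, and the 4 lists of E17.5 lay between them.

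As tissue means (± SD, n = 2 lists each) the medians were 1262.5 ± 265 bp for E11.5 and 1087.5 ± 194 bp for E14.5. At E17.5 they were 1212.5 ± 88.4 bp in the frontal and 1212.5 ± 17.7 bp in the occipital part. The differences between tissues were smaller than the SD of the E11.5 replicates. Scaling each list by its total covered length changed this order. The medians were then 1445 bp for E11.5, 1390 bp for E14.5, 1265 bp for frontal and 922.5 bp for occipital cortex, and fell from the first stage to the last. Replicates of one stage stood far apart at the level of single members. At E11.5, 236 members were longer in replicate 2 and 7 in replicate 1, and at E14.5, 219 were longer in replicate 2 and 20 in replicate 1. E11.5 replicate 2 held the longest value of 161 members, and E14.5 replicate 1 the shortest of 108. At E17.5 the replicates lay closer, with a median absolute log2 difference of 0.15 in frontal and 0.11 in occipital cortex against 0.37 at E11.5.

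Constant loci with H3K27ac in all 8 lists were longest in the occipital list of replicate 2, at a median of 3550 bp, and covered 3337.5 ± 301 bp in occipital and 2950 ± 141 bp in frontal cortex. Members covered 1225 bp in that same list. That list also held more regions than any other H3K4me2 list.

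**Figure D2:**
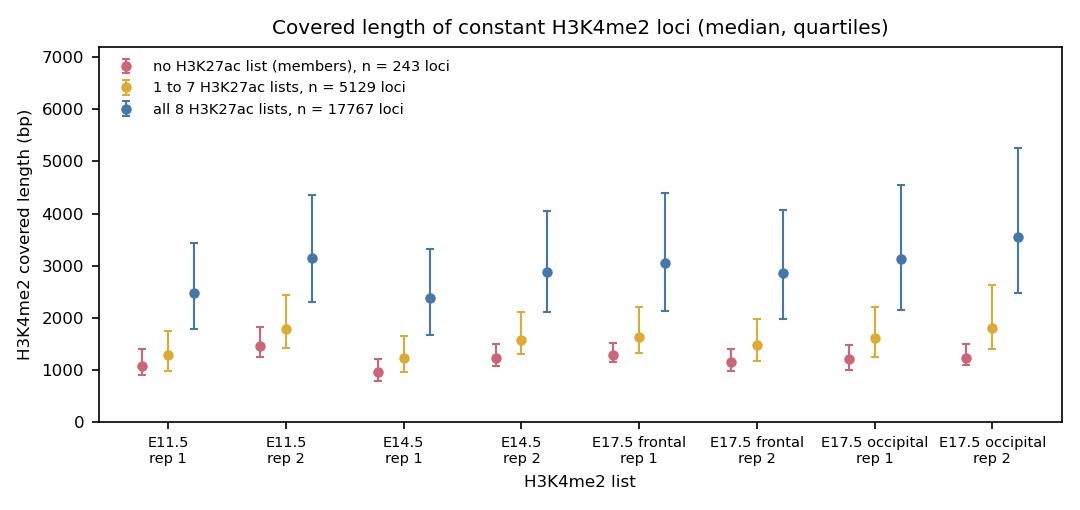
Covered length in bp (y axis) in each H3K4me2 list (x axis) for constant loci with no, 1 to 7, or all 8 overlapping H3K27ac lists. Points are medians over loci and bars run from the first to the third quartile; the red medians of the members lie between 950 and 1450 bp in every list.

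The mean covered length over the 8 lists was below 1500 bp in 189 members and above 3000 bp in 10. The longest lay at chr13:73397326-73403725. It was covered over 4475 and 6225 bp at E11.5, 3300 and 5900 bp at E14.5, 6275 and 4975 bp in frontal cortex and 6150 and 4450 bp in occipital cortex. Its values overlapped between all tissues, and the nearest H3K27ac region of any list was 16075 bp away.

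The locus at chr19:43458476-43463750 came next, with 4450 and 5275 bp at E11.5, 2700 and 4500 bp at E14.5, 4400 bp in both frontal lists and 4125 and 4300 bp in the occipital ones. It lay 50501 bp from the nearest H3K27ac region, the largest distance among the 6 longest. Both E11.5 values lay above all 4 of E17.5, by 50 bp at the least, while the E14.5 values ran from below to above those of E17.5. The log2 change from E11.5 to E17.5 was -0.16 ± 0.20 (SE; limma adjusted p = 0.619).

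The locus at chr6:88146176-88150200 was the steadiest of the 6 longest. Its covered length ranged from 3375 to 4025 bp over the 8 lists (mean 3675 ± 226 bp, SD, n = 8 lists), and 83.2% of its width was covered in every list. An H3K27ac region came within 1499 bp of it, in E17.5 frontal replicate 1, without touching it.

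The locus at chr5:151459201-151464775 was the most uneven of the 6. It was covered over 650 bp in E11.5 replicate 1, 4975 bp in E11.5 replicate 2, 875 bp in E14.5 replicate 1 and 2850 bp in E14.5 replicate 2, and then over 5375 to 5525 bp in all 4 lists of E17.5. No base of it was shared by all 8 lists. Its nearest H3K27ac region was equally close in every H3K27ac list, at 2275 to 2450 bp. All E17.5 values exceeded all earlier ones, but the E11.5 replicates differed by more than the stages did, and the log2 change from E11.5 to E17.5 of 1.43 ± 0.79 (SE) had a limma adjusted p of 0.267.

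The other 2 of the 6 longest were at chr2:147009351-147014800 (mean 3584 ± 1541 bp) and chr4:44714026-44718350 (mean 3562.5 ± 525 bp, SD, n = 8 lists). The first is described with the changes between stages. The second was covered over 2550 to 4325 bp and lay 23724 bp from H3K27ac.

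**Figure D3:**
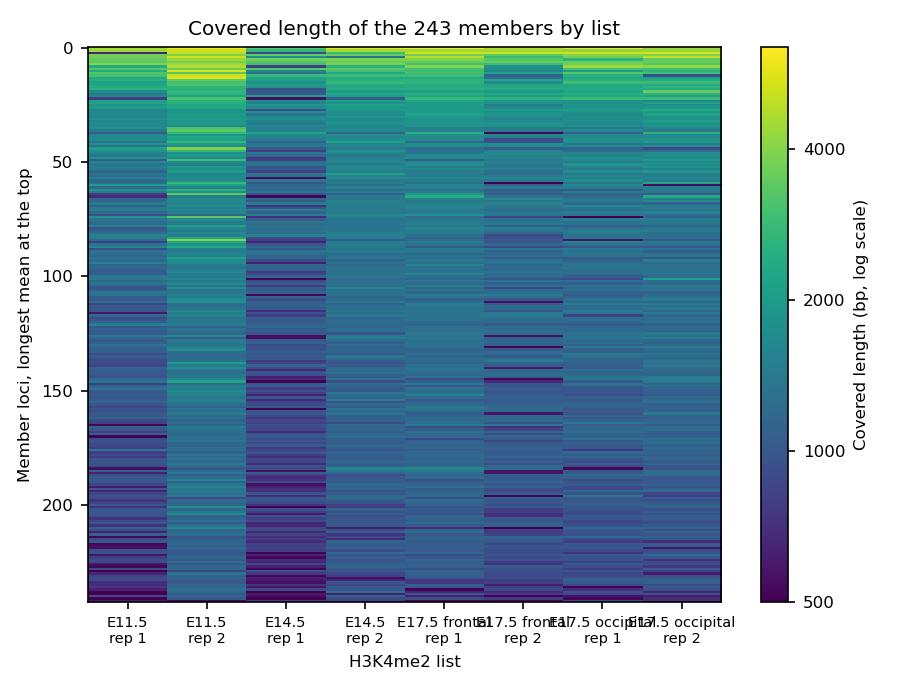
Covered length (colour, bp on a log scale) of the 243 members (rows, ordered by mean length) in the 8 H3K4me2 lists (columns). The bright column is E11.5 replicate 2, which held the longest value of 161 members, and the darkest is E14.5 replicate 1, which held the shortest value of 108.

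The comparison of stages asks whether H3K4me2 at these loci widened or shrank while the cortex formed. Covered length was analysed as log2(covered bp + 200) over all 63453 H3K4me2 loci called in at least 2 lists, with limma and Benjamini-Hochberg adjustment, and a locus is called at an adjusted p below 0.05. All 243 members were in the fit. The rule used presence in every list, so a member is never at 0 in a list, whereas the tested loci include many that are absent from some lists and can change more. The share called over all tested loci is therefore given as background only, and the constant loci, also present in every list, are the closer reference. Because the rule bears on both, nothing is read from a lower share of calls in members than over all tested loci. The median SE of the log2 change from E11.5 to E17.5 was 0.219 in members and 0.159 in the constant loci. A lower share of calls than in the constant loci is therefore not read as a steadier length either.

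From E11.5 to E14.5 no member was called, against 3.94% of all tested loci (1.87% longer and 2.08% shorter) and 0.575% of the constant loci. The share in constant loci amounts to few calls in a set of this size, so the lack of calls does not set the members apart. By limma's unadjusted p below 0.05, 1 member was longer and 7 were shorter (3.29%, against 8.52% of all tested loci and 5.1% of the constant loci). The median log2 change was -0.19 in members, -0.08 in constant loci with H3K27ac in all 8 lists and 0 over all tested loci. The median of the members was -0.35 without E14.5 replicate 2, but it was -0.02 without E14.5 replicate 1 and near 0 without E11.5 replicate 2. The size of the median thus rested on single lists.

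From E14.5 to E17.5 (the mean of frontal and occipital cortex) 1 member was called longer and none shorter, 0.412% against 13.6% of all tested loci (13.4% longer and 0.162% shorter) and 3.66% of the constant loci. The median log2 change was 0.12 in members, 0.20 in fully acetylated constant loci and 0.47 over all tested loci. The direction of the members' median depended on the scaling. It was -0.34 with length scaled by list total, against 0.06 over all tested loci, and 1 member was then called, shorter. With an equal number of regions in each list it was -0.66, against 0.19, with 10 members called shorter (4.17%, against 9.32%) and none longer. In that setting 243 and 193 members kept a region in the E14.5 lists. In the frontal lists 192 and 193 did, and in the occipital ones 127 and 49, so these calls mix lost regions with changes of length. Without E14.5 replicate 1 no member was called, the median was -0.02 and 0.00158% of all tested loci were called. No member was called without either occipital list, 2 were called longer without E11.5 replicate 2 (0.823%, against 15.6% of all tested loci) and 8 without E14.5 replicate 2 (3.29%, against 17.1%). Without frontal replicate 1 the single call was of a member that was shorter.

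From E11.5 to E17.5, 3 members were called shorter and none longer, 1.23% against 22.7% of all tested loci (19.5% longer and 3.13% shorter), 9.02% of the constant loci and 9.88% of those with H3K27ac in all lists. Most calls in these references were longer. Of the 23139 constant loci, 1847 were called longer and 240 shorter. Of the 17767 with H3K27ac in all lists, 1602 were called longer and 153 shorter. The median log2 change was -0.04 in members, 0.12 in those fully acetylated loci and 0.37 over all tested loci. Without E11.5 replicate 1 no member and 1.89% of all tested loci were called. Without E11.5 replicate 2, 5 members (2.06%, against 21.5% of all tested loci) were called, all longer, and the median was 0.13, against 0.95 over all tested loci. No member was called without frontal replicate 2 or without occipital replicate 2, and 1 without frontal replicate 1 or without occipital replicate 1. When covered length was scaled by the total of each list, 15 members were called shorter and none longer (6.17%, against 23.4% of all tested loci), and the median was -0.36. With an equal number of regions in each list the median was -0.73, and 33 of 240 members were called shorter and 1 longer (14.2%, against 22.9% of all tested loci). In that setting 235 and 181 members kept a region in the E11.5 lists. In the frontal lists 192 and 193 did, and in the occipital ones 127 and 49. A member that lost its region counts as uncovered, so these calls mix lost regions with changes of length.

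Between frontal and occipital cortex at E17.5 no member was called, against 9.93% of all tested loci (0.698% longer and 9.23% shorter in frontal cortex) and 0.752% of the constant loci. By limma's unadjusted p below 0.05, 1 member was shorter in frontal cortex (0.412%, against 16.7% of all tested loci and 5.47% of the constant loci in either direction). The median log2 difference was -0.02 in members, -0.11 in fully acetylated constant loci and -0.27 over all tested loci. Without frontal replicate 1, 1 member was called shorter in frontal cortex, and without frontal replicate 2 the median was 0.06. No locus of the whole table was called without either occipital list. Scaling by list total turned the median of the members to 0.39, against 0.06 over all tested loci, and gave 1 call, longer in frontal cortex. With an equal number of regions in each list the median was 1.38, against -0.09, and 32 of 240 members (13.3%, against 7.01%) were called, all longer in frontal cortex. In that setting 192 and 193 members kept a region in the frontal lists, but 127 and 49 in the occipital ones. A member that lost its region counts as uncovered there, so these calls mix lost regions with changes of length. The occipital H3K4me2 lists covered 113 and 162 Mb and the frontal ones 105 and 90.0 Mb.

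**Figure D4:**
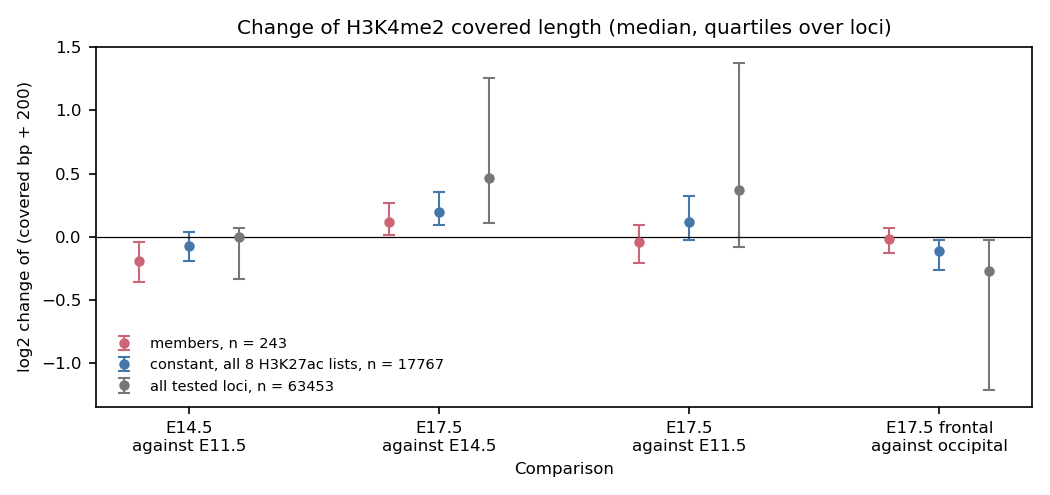
Log2 change of covered bp plus 200 (y axis) in 4 comparisons (x axis), for the 243 members, the 17767 constant loci overlapped by all 8 H3K27ac lists and all 63453 tested loci. Points are medians and bars quartiles over loci; the medians of the members lie between -0.19 and 0.12.

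The member called longer from E14.5 to E17.5 was the locus at chr2:147009351-147014800. It was covered over 3700 and 5425 bp at E11.5, 1750 and 1275 bp at E14.5, 4900 and 2800 bp in frontal cortex and 3775 and 5050 bp in occipital cortex. Both E14.5 values were thus the lowest of the 8, and all lists of E17.5 lay above them. The log2 change was 1.32 ± 0.29 (SE; limma adjusted p = 0.0393), and the fall from E11.5 to E14.5 of -1.47 ± 0.34 was not called (adjusted p = 0.122). With length scaled by list total the rise was 0.82 on the log2 scale and was not called (limma adjusted p = 0.165). With an equal number of regions in each list its adjusted p was 0.115, with the replicate number as a block it was 0.0714, and leaving out 1 list at a time it ranged from 0.0291 to 0.189.

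Of the 3 members called shorter from E11.5 to E17.5, the locus at chr14:104856176-104860775 had the largest change. The locus was covered over 2100 and 3950 bp at E11.5, 1025 and 1450 bp at E14.5, 1250 and 1050 bp in frontal cortex and 1150 and 850 bp in occipital cortex. Every later value was below both E11.5 values. The log2 change was -1.29 ± 0.29 (limma adjusted p = 0.0305), with adjusted p from 0.0414 to 0.107 when a list was left out.

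A locus at chr13:40803676-40806050 went from 1600 and 2375 bp at E11.5 to 1200 and 1400 bp at E14.5, and to 850 to 1050 bp in the 4 lists of E17.5. The log2 change to E17.5 was -0.88 ± 0.20 (limma adjusted p = 0.0312, and 0.0416 to 0.107 without 1 list). The locus at chr10:21877626-21880125 went from 1825 and 2500 bp to 1175 and 1225 bp and then to 1025 to 1425 bp, with a log2 change of -0.77 ± 0.20 (limma adjusted p = 0.0466). That call was lost with the replicate block (adjusted p = 0.0587) and without any single list (0.068 to 0.160). In all 3 loci the E11.5 values did not overlap those of E17.5. The nearest H3K27ac regions lay 4026, 3100 and 7650 bp from them.

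Members were scattered along the chromosomes, with a minority in tight runs. Neighbouring constant loci were a median of 36875 bp apart, a gap that their larger number shortens. The median gap between neighbouring members was 3984912.5 bp, over 224 gaps. Nevertheless 58 members (23.9%) stood in 22 runs in which neighbours were less than 100 kb apart, and 13 of these runs were pairs. Of all constant loci 90.7% stood in such runs, a share that their larger number raises. Members came from all 19 autosomes. Chromosome 2 held 24, chromosome 11 held 21 and chromosome 8 held 20, whereas chromosome 16 held 1. As a share of constant loci they ranged from 0.138% on chromosome 16 and 0.538% on chromosome 15 to 1.55% on chromosome 8.

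The runs with most members held 5 each. The first spanned chr2:74505802-74591725, or 85924 bp, with members at chr2:74505802-74507375 (mean covered length 1300 ± 134 bp), chr2:74510351-74511675 (1075 ± 246 bp), chr2:74549501-74550750 (1006 ± 123 bp), chr2:74553476-74554725 (1075 ± 101 bp) and chr2:74590451-74591725 (959 ± 171 bp; SD, n = 8 lists). Besides these it held 2 constant loci that were overlapped in 1 and 3 H3K27ac lists. A single list called at most 1 H3K27ac region in the whole span, over at most 1050 bp or 1.22% of it.

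The second run spanned chr6:52107576-52211350, or 103775 bp. Its members were at chr6:52107576-52109550 (mean covered length 1791 ± 139 bp), chr6:52122001-52123450 (1231 ± 110 bp), chr6:52153251-52155050 (1356 ± 235 bp), chr6:52166626-52168250 (1412.5 ± 158 bp) and chr6:52209676-52211350 (1053 ± 423 bp; SD, n = 8 lists). A pair of other constant loci in it were overlapped in 1 and 5 H3K27ac lists. At most 1.04% of the span was covered by H3K27ac in a list. In both runs the members were short and H3K27ac covered little of the span in any single list. The runs were chosen for holding most members, so this follows in part from the choice. No constant locus of either run was acetylated in all lists.

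A run of 4 members spanned chr8:59799201-59908950, where 1 of 6 constant loci was overlapped in all 8 H3K27ac lists and H3K27ac covered 0.866% to 3.28% of the span. Another 6 runs held 3 members each, over 22325 to 178625 bp, and the shortest of them was taken as the fourth example. This run, at chr17:36294326-36316650, packed 3 members of 1200, 1850 and 1200 bp into 22325 bp. No list called an H3K27ac region anywhere in that span, and it held no other constant locus.

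Few members had H3K27ac within 1 kb or lay more than 100 kb from any, and the rule itself excludes overlap. From the edge of the locus to the nearest region in any of the 8 H3K27ac lists the median distance was 7750 bp (quartiles 3512.5 and 17676 bp). An H3K27ac region lay within 1 kb of 11 members, within 5 kb of 85 (35.0%) and within 10 kb of 139 (57.2%), and 9 members (3.70%) were more than 100 kb from any. On both sides at once, H3K27ac lay within 10 kb of 29 members (11.9%) and within 50 kb of 173 (71.2%). The nearest constant locus with H3K27ac in all lists was a median of 43525 bp away.

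The median distance to the pooled H3K27ac lists was shorter in never acetylated loci called in fewer H3K4me2 lists, with widely overlapping quartiles. It was 4875 bp for the 10456 loci called in 1 list, 6000 bp for those in 2 to 3 lists and 6375.5 bp for those in 4 to 7 lists. The quartiles were 1800 and 12900 bp in the loci called in 1 list. In the same order, 69%, 66.2% and 63.6% of these sets lay within 10 kb of H3K27ac, against 57.2% of members. Beyond 100 kb were 2.06%, 1.99% and 2.66%, against 3.70% of members. The highest median against a single H3K27ac list was 21700 bp for members. It was 19400 bp for loci called in 1 H3K4me2 list, 20025 bp for 2 to 3 and 19875 bp for 4 to 7. Members thus had the largest value by this measure too, while the order of the other sets did not hold throughout. The sets share the same H3K27ac lists, and the differences were not tested.

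By tissue (mean ± SD, n = 2 lists each), the median distance of the members to H3K27ac was 20662.5 ± 1467 bp for E11.5 and 17287.5 ± 2634 bp for E14.5. For E17.5 it was 14775.5 ± 4348 bp in the frontal and 15487.5 ± 1892 bp in the occipital part. In single lists it was 21700 and 19625 bp at E11.5, 15425 and 19150 bp at E14.5, 11701 and 17850 bp in frontal cortex and 16825 and 14150 bp in occipital cortex. All later lists lay below both E11.5 lists, and frontal replicate 1, the H3K27ac list with the most regions, was the lowest. This order did not hold at equal list size. With the 47631 widest regions of each list the tissue means were 21087.5 bp for E11.5, 22912.5 bp for E14.5, 25724.5 bp for frontal and 24525 bp for occipital cortex. The mean of E11.5 was then the lowest. Single lists gave 22550 and 19625 bp at E11.5 and 20225 and 25600 bp at E14.5. They gave 22774 and 28675 bp in frontal and 27525 and 21525 bp in occipital cortex. The E11.5 lists thus overlapped those of E14.5 and of occipital cortex.

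For single members, H3K27ac was nearer in both frontal lists of E17.5 than in both E11.5 lists at 106 loci (43.6%) and farther at 35 (14.4%). The same held for 47.1% and 8.55% of all 15526 autosomal H3K4me2 loci that were never acetylated, members included. In occipital cortex 103 members (42.4%, against 42.5% of those loci) had H3K27ac nearer and 45 (18.5%, against 9.95%) farther than at E11.5. At E14.5 it was nearer at 82 (33.7%, against 33.8%) and farther at 29 (11.9%, against 8.86%). At equal list size, an alternative chosen after seeing the data, 63 members (25.9%, against 28.1%) were nearer and 41 (16.9%, against 13.3%) farther at E14.5. In that setting 78 were nearer and 56 farther in frontal cortex (32.1% and 23.0%, against 32.5% and 17.9%), and 71 nearer and 61 farther in occipital cortex (29.2% and 25.1%, against 31.0% and 17.8%). The share nearer in members was close to that over all never acetylated loci, and nothing is read from its direction. The share farther was above that over all never acetylated loci in each comparison. The comparisons reuse the same members and the same E11.5 lists. These differences were not tested.

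**Figure D5:**
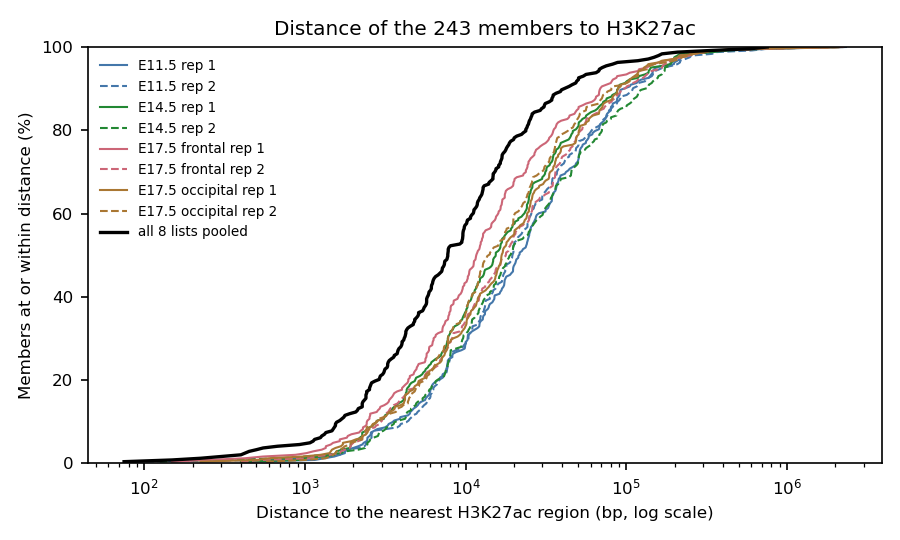
Cumulative share of the 243 members (y axis, %) by distance to the nearest H3K27ac region (x axis, bp on a log scale). Thin lines are the 8 H3K27ac lists and the black line is all lists pooled, whose median is 7750 bp.

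The members farthest from H3K27ac lay 753050 bp away at chr2:87365676-87367000, 592800 bp at chr2:85860126-85861300, 341975 bp at chr4:3157651-3158900 and 208025 bp at chr2:174966526-174967675. All 4 were short. The distance of the first was set by 1 list, E11.5 replicate 2, since the other 7 had their nearest region at 2098350 bp or more. It was covered over 925 and 1275 bp at E11.5, 1075 and 1200 bp at E14.5, and 1100 to 1300 bp at E17.5. The second was covered over 500 to 1175 bp, the third over 925 to 1250 bp and the fourth over 700 to 1150 bp. For the locus at chr4:3157651-3158900 H3K27ac was called on its right side only, since no list had a region between it and the start of the chromosome.

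Just inside the rule were members whose nearest H3K27ac region stopped short of them by 75 bp at chr10:8468826-8470125, 149 bp at chr17:34238176-34239375, 225 bp at chr2:131645576-131646925 and 300 bp at chr17:68559476-68560925. At chr10:8468826-8470125 it was 75 bp away in E11.5 replicate 2 and 125 bp in E14.5 replicate 2, while the nearest region of the other 6 lists was 2025 to 6925 bp away. At chr17:34238176-34239375 it was called in frontal replicate 1, and the other 7 lists had their nearest region at 13650 to 15500 bp.

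Just outside the rule were 230 constant loci overlapped in a single H3K27ac list. The overlap was 26 bp at chr10:19081901-19083875, and 150 bp both at chr4:129863701-129866850 and at chr6:21807426-21808625. Its median was 700 bp, or 39.6% of the locus. The list concerned was E17.5 frontal replicate 1 at 66 loci and E14.5 replicate 1 at 58, the H3K27ac lists without which the number of members rose most. On the H3K4me2 side, 190 never acetylated loci were called in 7 lists, and the missing list was E14.5 replicate 1 at 81 of them and E11.5 replicate 1 at 77. These are the 2 shortest H3K4me2 lists.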

How the data were processed

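ChIP-seq for H3K27ac and H3K4me2 was used from 16 mouse samples. The 10 rhesus lists and the inputs were not used here. Each deposited file holds the chromosome, start and end of the regions the authors called in 1 sample, with no header. The submitters' processing notes name Bowtie 0.12.9 and the builds hg19 and mm9, with no role. The mouse lists were taken as mm9. The sources used here do not say how regions were called. The gene and promoter tables at hand are of another build, so no locus was tied to a gene and no sequence is printed. Positions are 1-based.

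Regions were merged where they overlapped or touched, an overlap of at least 1 bp counting as acetylated. Covered length, in bp, was summed per locus and list and fitted with limma 3.58.1 (R 4.3.3, eBayes with a trend, a mean per tissue, 200 bp added) over loci in at least 2 lists. The fit was also run on simulated data with independent noise and large shifts. Those data held no shift shared by a whole list, so they give no error rate for changes as small as the members' medians. Other steps used Python 3.11.15. Medians over members carry no test. Loci named are the 6 longest, those called between stages with values that do not overlap, the 4 farthest from and nearest to H3K27ac and the 4 runs with most members, ties going to the shortest run. The members and lists were chosen with earlier results of these data known. Replicates are biological per the series' design text.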

Additional observations from a re-analysis of the deposited data

How the results depend on the processing

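The number of members was 242 with regions up to 1000 bp apart merged and 232 with no H3K27ac within 1000 bp. It was 433 with 7 H3K4me2 lists sufficing, 3141 when H3K27ac had to cover at least 50% of a locus, 123 with equally many of the widest regions in each list, and 244 to 324 without 1 list. With an equal number of regions (32366 per H3K4me2 list) 240 members and 40128 loci were tested. Called were 2 members, both longer, for E14.5 against E11.5 (0.833%, against 8.33% of all), 10, all shorter, for E17.5 against E14.5 (4.17%, against 9.32%), 34, of which 33 shorter, for E17.5 against E11.5 (14.2%, against 22.9%) and 32, all longer in frontal cortex, for frontal against occipital (13.3%, against 7.01%). In that setting 49 members keep a region in occipital replicate 2, since short regions of long lists are dropped. For E17.5 against E14.5 no member was called with 1000 bp added, with the replicate block or with loci of any list. For E17.5 against E11.5, 2 were called with the replicate block, 1 with loci in at least 3 lists, 0 with loci of any list and 15 with scaled length. For frontal against occipital 1 was called with scaled length. Leaving out 1 list gave 0 to 5, 0 to 8, 0 to 5 and 0 to 1 calls in the 4 comparisons. With scaled length the 1 call of E17.5 against E14.5 was of a shorter member. Over all tested loci the calls of the 4 comparisons, 2502, 8622, 14375 and 6299, became 600, 3118, 6768 and 0 with loci in at least 3 lists, 3 to 3357, 1 to 10652, 1178 to 15763 and 0 to 7158 without 1 list, and 3343, 3738, 9188 and 2813 with equal region numbers. The first was 1078 with 1000 bp added, and E17.5 against E14.5 and E11.5 gave 3011 and 8449 with loci of any list. Scaling moved the median covered length to 1390 bp at E14.5 and 922.5 bp in occipital cortex, and equal region numbers moved the latter to 600 bp. Equal region numbers gave median H3K27ac distances of 22912.5, 25724.5 and 24525 bp at E14.5, frontal and occipital E17.5. Leaving out 1 list of a tissue, covered length ranged from 1075 to 1450 bp at E11.5. Deviations of same-numbered H3K4me2 samples correlated at -0.0432 to 0.242 between tissues, which cannot show whether these samples were paired. The main fit used no pairing. The block changed no other count of members called. Runs of members under 50 kb apart held 47 members. Distances from the locus centre moved by less than the replicate SD. Unknown depth limits any statement that H3K27ac is absent rather than not called. The cause of these changes was not tested.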
